A study of Mus musculus with 8 samples.

Results

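The subunits of the mitochondrial respiratory chain and of the ATP synthase that the nucleus encodes were followed in mammary tumor cells sorted by expression of the Notch ligand Dll1. The members were all protein-coding records whose symbol starts with Ndufa, Ndufb, Ndufc, Ndufs or Ndufv (the assembly factors Ndufaf left out), with Uqcr, with Cox4 to Cox8 or with Atp5, plus Sdha, Sdhb, Sdhc and Sdhd, with at least 10 counts in at least 2 libraries. Of the 53697 records in the table, 83 were members, and all 83 passed the filter on low counts. They comprised 38 records of complex I, 4 of complex II, 8 of complex III, 15 of complex IV and 18 of complex V. The complex was assigned by symbol. Ndufa4, a subunit of complex IV, and its relative Ndufa4l2 are therefore counted with complex I throughout. The other 3 protein-coding records with such symbols, Cox6a2, Cox7b2 and Cox8c, had at most 6 counts in any library.

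The tumors arose in 4 mice that carried the polyoma middle T oncogene under the mouse mammary tumor virus promoter (MMTV-PyMT) on a C57BL/6 background. GFP mice 1 and 2 carried in addition the Dll1 GFP-IRES-Cre-ERT2 knock-in, and mCh mice 1 and 2 a Dll1 mCherry reporter made from a bacterial artificial chromosome. Each mouse gave 1 library of Dll1+ and 1 of Dll1- cells, both depleted of cells with CD45, CD31 or TER119, and the mouse named in the labels paired the libraries. No age was given for these mice, and no treatment was named. Levels below are in CPM, counts scaled to a common library size with TMM factors, and differences are on the log2 scale.

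The chain passes electrons from NADH and succinate to oxygen. Complex I (NADH dehydrogenase) and complex II (succinate dehydrogenase) feed ubiquinone, complex III passes the electrons on to cytochrome c, and complex IV (cytochrome c oxidase) reduces oxygen. Complexes I, III and IV pump protons, and complex V, the ATP synthase, uses the proton gradient to make ATP. Most subunits are nuclear genes, while a small core is encoded in mitochondrial DNA, and several complex IV subunits exist as isoforms used by different tissues. Nuclear respiratory factor 1 (NRF1), the ETS factor GABP, YY1 and the estrogen-related receptors (ERR) are known regulators of these genes.

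Short stretches of promoter show what some members share at the sequence level. RefSeq windows on GRCm38.p6, from 250 bases before to 50 bases after the start, were matched for 68 of the 83 members. The motif letters searched, on both strands, were GCATGCGC for NRF1, CCGGAAGT for ETS factors, AAGATGGCG for YY1 and TCAAGGTCA for ERR. The stretches below run 5′ to 3′ on the strand of the gene, with the motif in capitals, and are shown for at least 1 member of each complex.
Ndufa6: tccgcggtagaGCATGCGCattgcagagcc
Sdhb: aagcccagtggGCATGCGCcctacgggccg
Cox6a1: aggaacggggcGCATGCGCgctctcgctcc
Atp5k: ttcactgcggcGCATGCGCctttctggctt
Uqcr11: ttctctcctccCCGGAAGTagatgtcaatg
Atp5j: aagtgtaggaAAGATGGCGgagtcttagct
Atp5g3: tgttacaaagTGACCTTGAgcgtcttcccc
The first 4 hold the NRF1 motif and lie at chr15:82354356-82354385 (minus strand), chr4:140961206-140961235 (plus strand), chr5:115349100-115349129 (minus strand) and chr5:108434429-108434458 (minus strand). Uqcr11 holds the ETS motif at chr10:80406869-80406898 (minus strand), Atp5j the YY1 motif at chr16:84835045-84835074 (minus strand) and Atp5g3 the ERR motif, read on the opposite strand, at chr2:73911359-73911388 (minus strand). The NRF1 motif stood in 10 of the 68 member windows (14.7%) and in 3.93% of the windows of 17491 protein-coding genes. In Cox6a1 and Atp5k it is part of a palindrome, so the match on the other strand overlaps it. The YY1 motif stood in 7 member windows (10.3%, against 2.14% of all), the ETS motif in 5 (7.35%, against 5.69%) and the ERR motif in 2 (2.94%, against 0.377%). These matches describe letters in the window and no binding was measured.

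The sort was checked on the marker genes. Dll1 was at 7.61 and 13.7 CPM in the Dll1- and at 87.5 and 137.7 CPM in the Dll1+ libraries of the GFP mice, and at 34.7 and 50.3 CPM against 203.5 and 250.2 CPM in the mCh mice. Epcam, an epithelial surface protein, was at 898.6 to 1239.5 CPM, while Ptprc (CD45) was at 2.88 to 12.7 CPM. The libraries held 27301396 to 123907626 counts, the largest being the Dll1- library of mCh mouse 1. Other cells were not evenly spread. The 7 fibroblast markers summed to 993.96 to 1228.1 CPM in the 4 GFP libraries, to 7575 and 21582 CPM in the mCh Dll1- libraries and to 3011 and 3262 CPM in the mCh Dll1+ libraries, and all 7 had counts in all 8 libraries. The labelled lineage-negative cells of the mCh mice thus carried more fibroblast RNA, and more cells of a type and more RNA per cell cannot be told apart in bulk libraries. Of the other marker lists, the 5 luminal markers summed to 4742 to 8146 CPM, the 5 basal markers to 123.9 to 1429 CPM, the 5 endothelial markers to 36.6 to 278.5 CPM and the immune markers to 61.6 to 361.4 CPM, with the highest endothelial and immune sums in the mCh Dll1- libraries. Erythroid markers summed to 3.66 to 108.2 CPM, skeletal muscle markers to 1.26 to 8.39 CPM and adipocyte markers to 0.139 to 1.22 CPM.

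Dll1+ cells gave a smaller share of their mRNA to the nuclear subunits of the respiratory chain than the Dll1- cells of the same mouse. For the 13 subunits encoded in mitochondrial DNA, which are not members, this held in the GFP mice but not in the mCh mice. These summed to 35260 and 28272 CPM in Dll1- and 23795 and 27461 CPM in Dll1+ cells of the GFP mice. In the mCh mice they summed to 33103 and 19625 CPM in Dll1- and 42616 and 29163 CPM in Dll1+ cells. The 83 members summed to 7159 and 7362 CPM in the Dll1- libraries of GFP mice 1 and 2 and to 6127 and 6317 CPM in their Dll1+ libraries. In mCh mice 1 and 2 the sums were 11888 and 9809 CPM in Dll1- and 10002 and 9190 CPM in Dll1+ cells. The sum of the members was therefore lower in Dll1+ cells in 4 of 4 mice. Both mCh mice stood above both GFP mice in either fraction. Abundant members weigh most in such a sum, and the complexes did not contribute alike. In mCh mouse 2 complex V summed to 4041 CPM in Dll1- and 3598 CPM in Dll1+ cells, and complex IV to 1667 and 1664 CPM. The median log2 difference of the members was -0.128 and -0.180 in the GFP mice and -0.203 and -0.0601 in the mCh mice.

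Over the 4 mice, 15 of the 83 members fell in Dll1+ cells and 0 rose at an adjusted p under 0.05 (edgeR quasi-likelihood test with the mouse as a block, Benjamini-Hochberg over 18322 genes). Of all tested genes 7.04% fell and 6.98% rose. At an unadjusted p under 0.05, 36 members were lower and 2 higher, and DESeq2's Wald test called 30 lower and 0 higher. Of all 18322 genes, 5936 had an unadjusted p under 0.05 in either direction, and DESeq2 called 2229 lower and 2133 higher. The median log2 fold change was -0.138 for the members and -0.0007 for all genes, and 70 of the 83 values were below 0. In 41 members the Dll1+ library was the lower one in all 4 mice, a pattern that 19.9% of all tested genes shared. The 15 called members were lower by 14.2% to 25.3%. The number of calls rested on single mice, with 0 members called without GFP mouse 1 or without mCh mouse 1, 1 without GFP mouse 2 and 18 without mCh mouse 2. Calls over all genes moved as well, from 2568 to 433 without GFP mouse 1 and 405 without mCh mouse 1. They were 779 without GFP mouse 2 and 2400 without mCh mouse 2. The median of the members stayed between -0.179 and -0.131 with each mouse left out. Without the mouse as a block 2 members and 1207 of all genes were called.

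Complex V had the largest median difference, -0.238, with 6 of its 18 records lower. The 3 genes of highest rank were Atp5b, Atp5o and Atp5mpl. Atp5b, which encodes the catalytic beta subunit of the F1 head and lies on chromosome 10 of GRCm38 from 128083273 to 128090391, was at 859 and 846 CPM in the Dll1- and at 622 and 641 CPM in the Dll1+ libraries of the GFP mice. In the mCh mice it was at 1428 and 1197 CPM in Dll1- and at 1012 and 976 CPM in Dll1+ cells. The groups did not overlap within either reporter, and the fall was 24.98% (log2 difference -0.41, SE 0.08, adjusted p = 0.0230). Atp5o, which encodes the subunit that joins the head to the peripheral stalk, was at 129 and 115 against 82.6 and 90.7 CPM in the GFP mice. It was at 253 and 177 against 180 and 153 CPM in the mCh mice, so that the Dll1+ library of mCh mouse 1 lay above the Dll1- library of mCh mouse 2 (log2 difference -0.42, SE 0.08, adjusted p = 0.0275). Atp5mpl, a small membrane subunit, fell by 0.30 on the log2 scale (SE 0.07, adjusted p = 0.0361).

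The other called records of complex V were Atp5a1, the alpha subunit (log2 difference -0.33), Atp5f1, a subunit of the peripheral stalk (-0.28), and Atp5e, the epsilon subunit (-0.25). The 5 subunits of the F1 head, Atp5a1, Atp5b, Atp5c1, Atp5d and Atp5e, had a median of -0.252, and 3 of them were called. Atp5h, Atp5l and Atp5s ran the other way in every mouse, none of them called. Atp5s, which is annotated as a coupling factor and not as a core subunit, was at 7.88 and 8.98 CPM in Dll1- and 9.31 and 10.4 CPM in Dll1+ cells of the GFP mice, and at 6.80 and 6.18 against 7.84 and 8.42 CPM in the mCh mice (log2 difference 0.28, SE 0.10, adjusted p = 0.126).

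Complex I had 9 of its 38 records lower, with a median of -0.137. The 7 nuclear core subunits, which carry the electron path, had a median of -0.234 and were lower in all 4 mice without exception, and the other 31 subunits had a median of -0.087. This contrast between core and other subunits was not tested. Among the core subunits reported here Ndufs1 and Ndufs7 fell. Ndufs1, the largest iron-sulfur subunit, was at 81.9 and 83.7 CPM in Dll1- and at 67.4 and 67.8 CPM in Dll1+ cells of the GFP mice. It was at 87.6 and 79.4 against 72.5 and 69.9 CPM in the mCh mice. All 4 Dll1+ libraries lay below all 4 Dll1- libraries, whichever the reporter, and the fall was 16.5% (log2 difference -0.26, SE 0.05, adjusted p = 0.0263). Ndufs7, which lies near the ubiquinone site, fell by 0.23 on the log2 scale (SE 0.05, adjusted p = 0.0354). Ndufv1, which binds NADH, changed by -0.28 on that scale (adjusted p = 0.0526), and Ndufv2, Ndufs3 and Ndufs8 had values of -0.16, -0.14 and -0.13 (adjusted p from 0.126 to 0.226).

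Among the accessory subunits, Ndufa10 was at 74.5 and 76.8 CPM in Dll1- and at 56.7 and 59.7 CPM in Dll1+ cells of the GFP mice. It was at 121 and 106 against 103 and 93.0 CPM in the mCh mice. The difference was present in each mouse and larger than the spread within either GFP fraction (log2 difference -0.30, SE 0.06, adjusted p = 0.0286). Ndufa9, Ndufb7, Ndufb8, Ndufb9 and Ndufs6 were the other accessory subunits called, with log2 fold changes from -0.22 to -0.28. Ndufa6 and Ndufc2 had the highest values of the complex, 0.13 and 0.11 (adjusted p = 0.252 and 0.290).

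**Figure D1:**
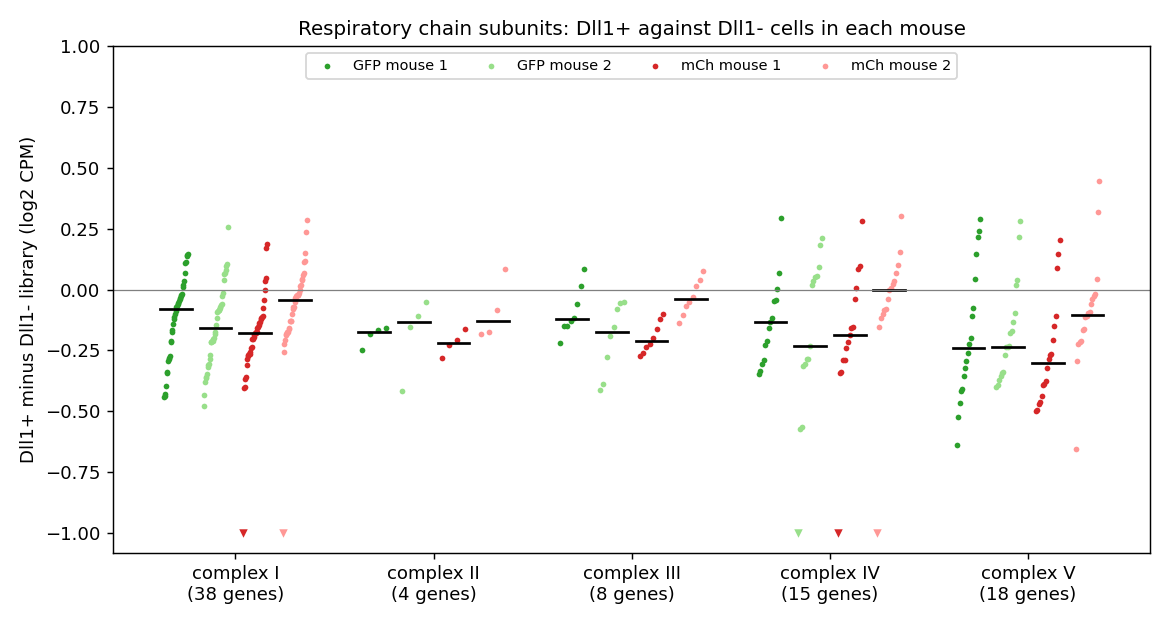
The log2 difference of CPM between the Dll1+ and the Dll1- library of each mouse (y axis) for every subunit (points, sorted within each mouse) of complexes I to V (x axis). Bars are medians, colors mark the 4 mice, and triangles at -1 stand for values below it. The bars lie below 0 in all 4 mice for each complex, the nearest to 0 being complex IV in mCh mouse 2 at -0.003.

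Complexes II, III and IV had 0 called members by edgeR, with 2, 4 and 3 at an unadjusted p under 0.05, and DESeq2 called 2, 3 and 2 of them. Their medians were -0.163, -0.123 and -0.096. Complex II, the succinate dehydrogenase of the citric acid cycle, had all 4 values below 0. Sdhb, its iron-sulfur subunit, was at 59.0 and 61.1 CPM in Dll1- and at 52.6 and 45.7 CPM in Dll1+ cells of the GFP mice, and at 92.2 and 81.6 against 79.8 and 71.8 CPM in the mCh mice (log2 difference -0.24, SE 0.06, adjusted p = 0.0528). Its Dll1+ values were the lower ones in each mouse, and it just missed the threshold. Sdha, the flavoprotein, stood at -0.20 (adjusted p = 0.0711), and the membrane anchors Sdhc and Sdhd had values of -0.12 and -0.11 (adjusted p = 0.163 and 0.285).

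In complex III the lowest p was that of Uqcrc1, a core protein, at 152 and 175 against 130 and 134 CPM in the GFP mice and 248 and 226 against 211 and 206 CPM in the mCh mice (log2 difference -0.25, SE 0.06, adjusted p = 0.0538). Uqcrfs1, the Rieske iron-sulfur protein, and Uqcrc2 gave log2 values of -0.22 and -0.18, both with an adjusted p of 0.0965. All 8 values of the complex were below 0. In complex IV Cox5a, a subunit on the matrix side, was at 49.6 and 55.6 against 44.4 and 37.6 CPM in the GFP mice and at 101 and 90.6 against 79.9 and 85.3 CPM in the mCh mice (log2 difference -0.29, SE 0.09, adjusted p = 0.0817). Cox7b stood at -0.19 (adjusted p = 0.112). Only 1 of the 15 records of complex IV (6.67%) was lower in all 4 mice, a pattern that 19.9% of all tested genes shared. The pattern held for 20 of 38 records in complex I and 12 of 18 in complex V. It held for 3 of 4 in complex II and 5 of 8 in complex III. This contrast between complexes was not tested.

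**Figure D2:**
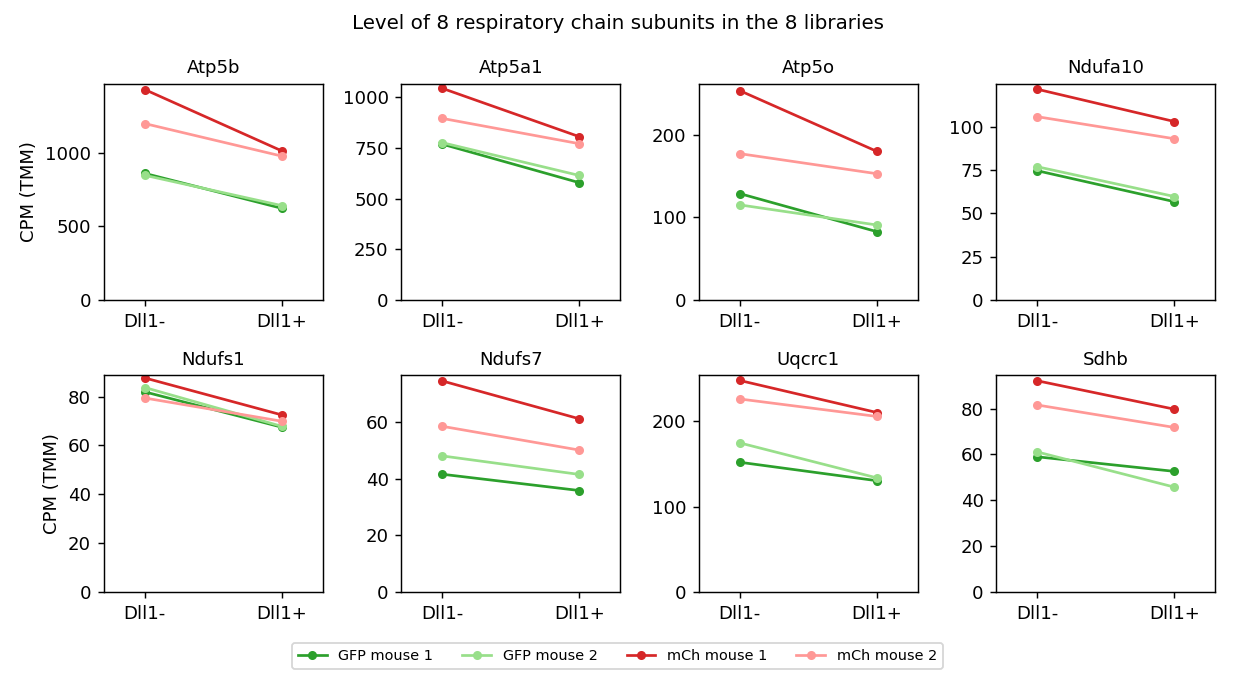
Level in CPM (y axis, from 0) of 8 subunits in the Dll1- and the Dll1+ library (x axis) of each mouse, with 1 line per mouse. Each line falls from Dll1- to Dll1+, and for Ndufs1 the 4 lines run together while for Atp5b the mCh lines lie above the GFP lines.

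The falls were also examined within each reporter, with the effect of each reporter estimated apart in 1 model of the 8 libraries. In the GFP mice 3 members fell, Ndufa10 (log2 difference -0.38, adjusted p = 0.0271), Atp5o (-0.49, adjusted p = 0.0458) and Atp5f1 (-0.36, adjusted p = 0.0495), and 0 rose, while 4.84% of all tested genes fell and 4.29% rose. At an unadjusted p under 0.05, 28 were lower and 0 higher, and DESeq2 called 6 lower and 0 higher. Of all 18322 genes, 4900 had an unadjusted p under 0.05 in either direction, and DESeq2 called 1046 lower and 1007 higher. Ndufs1 was next in rank (-0.29, adjusted p = 0.0593). Leaving out either GFP mouse left 0 calls, and leaving out either mCh mouse gave 5, with 0 without the block. In the mCh mice 2 members fell, the isoforms Ndufa4l2 and Cox4i2 described below, and 0 rose. Of all tested genes 6.25% fell and 5.51% rose. The share of members that fell, 3.61% in the GFP and 2.41% in the mCh mice, was below that of all genes. At an unadjusted p under 0.05, 20 members were lower and 2 higher in the mCh mice, beside 5539 of all genes in either direction. DESeq2 called 5 members lower and 0 higher, and 1427 of all genes lower and 1046 higher. Next in rank by edgeR were Atp5b (-0.40, adjusted p = 0.0688) and Atp5k (-0.35, adjusted p = 0.0734). With the mCh libraries fitted alone 0 members, and 0 of all genes, were called.

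The median of the members was -0.148 in the GFP mice and -0.147 in the mCh mice, where it was -0.0815 without mCh mouse 1 and -0.232 without mCh mouse 2. Between the effects of the GFP and the mCh mice, 0 members differed by edgeR (background 0.0710%), 2 had an unadjusted p under 0.05, and DESeq2 called 1. Of all 18322 genes, 2420 had such an unadjusted p and DESeq2 called 540. The 4 members of lowest p were Ndufa4l2, Cox4i2, Cox4i1 and the second Atp5o record. Cox4i1, the common isoform of subunit 4, had a GFP effect that was lower than its mCh effect by a log2 difference of -0.28 (SE 0.13, adjusted p = 0.436). It was at 246 and 244 against 193 and 197 CPM in the GFP mice and at 371 and 314 against 332 and 329 CPM in the mCh mice, where mCh mouse 2 had the higher value in Dll1+ cells. The second Atp5o record is a readthrough transcript that can share reads with Atp5o (difference 0.59, SE 0.33, adjusted p = 0.514).

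Several other expressed sequences can share reads with members. Ndufb4 was at 5.03 to 11.8 CPM, while its processed pseudogene Ndufb4c was at 18.6 to 43.0 CPM, and the pseudogene Cox6c2 was at 14.7 to 31.7 CPM beside Cox6c at 60.5 to 135 CPM. The levels of Ndufb4 and Cox6c are uncertain for that reason.

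The isoforms showed which variant of each subunit these cells used. Per kilobase of transcript, Cox4i1 was at 256 to 491 CPM and Cox4i2, known from lung and hypoxic cells, at 0.143 to 5.95 CPM. Cox6a1, the common isoform of subunit 6a, was at 180 to 377 CPM per kilobase, and its muscle isoform Cox6a2 had too few counts to be a member. For subunit 6b, Cox6b1 was at 161 to 352 and Cox6b2, known from testis, at 0.324 to 5.02 CPM per kilobase. For subunit 7a, Cox7a2 was at 118 to 211, the related Cox7a2l, a factor of supercomplex formation, at 97.2 to 199 and the muscle isoform Cox7a1 at 5.95 to 15.0 CPM per kilobase. Cox7b stood at 78.8 to 165 CPM per kilobase and Cox8a at 213 to 439, against 2.42 to 6.61 for the muscle isoform Cox8b. In every library the common isoform exceeded the tissue isoform of its family. The genes for the c ring of the ATP synthase encode the same mature protein, and Atp5g3 (201 to 433 CPM per kilobase) exceeded Atp5g1 (27.6 to 57.9), which exceeded Atp5g2 (3.99 to 18.0) in all 8 libraries.

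Of the 16 genes of these isoform families, Ndufa4 and Ndufa4l2 included, 0 passed the test over the 4 mice by edgeR, 5 were lower and 0 higher at an unadjusted p under 0.05, and DESeq2 called 4 lower and 0 higher. The nearest was Atp5g3 (log2 difference -0.25, adjusted p = 0.0698), followed by Ndufa4l2 (-1.68, adjusted p = 0.0806), while Cox4i2 had a value of -1.91 (adjusted p = 0.114). Cox6a1, Cox6b1, Cox7a2, Ndufa4, Atp5g1 and Atp5g2 had values from -0.09 to -0.20. The values of Cox8a, Cox7a2l, Cox7a1, Cox6b2 and Cox8b lay between -0.07 and 0.06, and each changed sign under at least 1 other setting or without 1 mouse.

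Ndufa4l2 and Cox4i2 behaved unlike the other members. Ndufa4l2, a hypoxia-induced relative of the complex IV subunit Ndufa4 on chromosome 10 from 127514967 to 127517154, was at 0.409, 0.416, 0.349 and 0.380 CPM in the 4 GFP libraries. In the mCh mice it was at 13.0 and 16.6 CPM in Dll1- and at 2.29 and 3.26 CPM in Dll1+ cells. The mCh Dll1- libraries thus stood far above all others, and within the mCh mice it fell by 2.43 on the log2 scale (SE 0.19, adjusted p = 0.00705), against a value of -0.18 (SE 0.29, adjusted p = 0.829) in the GFP mice, where the gene had 10 to 17 counts. Cox4i2, on chromosome 2 from 152754173 to 152765037, was at 4.34 and 3.57 CPM in the mCh Dll1- libraries and at 0.580 and 0.486 CPM in the mCh Dll1+ libraries (log2 difference -2.89, SE 0.28, adjusted p = 0.00786). In the GFP libraries it had 3 to 20 counts, or 0.105 to 0.447 CPM. The difference between the reporters was 2.25 (SE 0.34, adjusted p = 0.0864) for Ndufa4l2 and 2.94 (SE 0.50, adjusted p = 0.0969) for Cox4i2, which did not pass the threshold.

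Both genes are known from pericytes, the contractile cells that wrap small vessels. The summed levels of pericyte and of fibroblast genes were likewise highest in the mCh Dll1- libraries. The list of 8 pericyte genes was chosen after the values of the isoforms were seen, and all 8 had counts in all 8 libraries. It summed to 607.1 and 707.7 CPM in the mCh Dll1- libraries and to 224.2 to 273.2 CPM in the other 6. Rgs5, a pericyte marker, was at 249.8 and 294.1 CPM in the mCh Dll1- libraries, at 34.5 and 35.6 CPM in the mCh Dll1+ libraries and at 7.49 to 12.01 CPM in the GFP libraries. Not all 8 followed Rgs5. In Dll1+ cells 4 of the 8 were higher in the mCh than in the GFP mice and 1 lower, beside 15.2% and 15.4% of all tested genes. Within the mCh mice 6 of the 8 pericyte genes fell in Dll1+ cells, with a median log2 fold change of -2.13. There 4 of the 7 fibroblast genes fell, with a median of -2.32. Other lists fell there as well, with 5 of 6 immune, 1 of 5 endothelial and 2 of 3 erythroid genes called. Their medians were -1.17, -1.36 and -1.36, while the luminal and basal medians were 0.341 and 2.05. Of all tested genes 6.25% fell. The part of any of these cell types in the values of Ndufa4l2 and Cox4i2 was not tested. Neither gene was among the 15 members called over the 4 mice or the 3 called in the GFP mice. They were the only 2 members called in the mCh mice. Leaving both out of the counts, a choice made after seeing the data, thus changes only the last count, to 0. No fit was repeated for it.

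**Figure D3:**
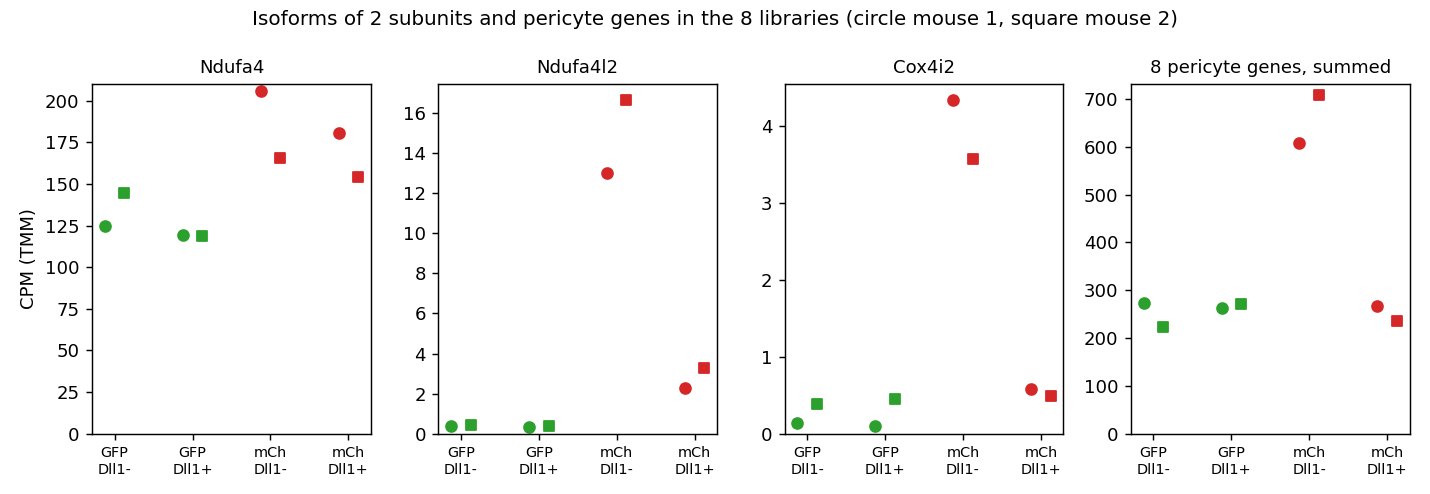
CPM (y axes from 0, each with its own scale) of Ndufa4, Ndufa4l2, Cox4i2 and the sum of 8 pericyte genes in the 4 groups (x axis), with a circle for mouse 1 and a square for mouse 2. Ndufa4l2, Cox4i2 and the pericyte sum are highest in the 2 mCh Dll1- libraries, whereas Ndufa4 lies between 118 and 206 CPM in all 8.

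Other genes of mitochondrial energy metabolism were compared as lists. The shares to set beside them are the 7.04% of all tested genes that fell over the 4 mice and the 6.98% that rose. Of these 18322 genes, 5936 had an unadjusted p under 0.05, and DESeq2 called 2229 lower and 2133 higher. Of 17 citric acid cycle genes, 8 fell and 0 rose in Dll1+ cells over the 4 mice (12 lower and 0 higher at an unadjusted p under 0.05, DESeq2 11 and 0), with a median log2 fold change of -0.24. Idh3a, a subunit of isocitrate dehydrogenase, Fh1, the fumarase, and Cs, the citrate synthase, had the lowest p, at -0.33, -0.34 and -0.30 (adjusted p from 0.0209 to 0.0291). Cs was at 211 and 199 against 164 and 163 CPM in the GFP mice and at 230 and 220 against 181 and 193 CPM in the mCh mice, so that all 4 Dll1+ libraries lay below all 4 Dll1- libraries. Of 21 electron carriers and their partners, 8 fell and 0 rose (12 and 0 at an unadjusted p under 0.05, DESeq2 11 and 0). The lowest p were those of Slc25a5, an ADP/ATP carrier of the inner membrane (-0.48), Cyc1, cytochrome c1 (-0.36), and Coq9, which serves ubiquinone synthesis (-0.29). In the GFP mice Cyc1 was at 109 and 105 CPM in Dll1- and at 78.2 CPM in both Dll1+ libraries, and in the mCh mice at 210 and 145 against 168 and 124.4 CPM. Cyc1 is a subunit of complex III whose symbol the member rule does not cover.

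The assembly factors of the complexes had a median of -0.02. Of the 49 that were tested, 2 fell (4.08%) and 0 rose, a share below the 7.04% of all tested genes that fell. They were Cox15, which makes heme a (-0.28, adjusted p = 0.0288), and Ecsit, of complex I assembly (-0.39, adjusted p = 0.0491). At an unadjusted p under 0.05, 7 assembly factors were lower and 1 higher, and DESeq2 called 5 lower and 0 higher. Uqcc2, of complex III assembly, had a value of -0.22 (adjusted p = 0.0710). The mitochondrial ribosomal proteins, which translate the subunits encoded in mitochondrial DNA, had a median of -0.19, with 17 of 78 lower and 0 higher (37 and 2 at an unadjusted p under 0.05, DESeq2 31 and 1). The cytosolic ribosomal proteins, short and abundant mRNAs like those of the members, had a median of -0.17 with 1 of 79 lower and 0 higher (24 and 0 at an unadjusted p under 0.05, DESeq2 24 and 0). Their median was -0.28 in the GFP and -0.04 in the mCh mice.

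Glycolysis genes moved in both directions, with 4 of 17 higher and 2 lower. Aldoa, Aldoc, Pfkp and Ldha rose and Hk2 and Eno1 fell, with log2 fold changes from -0.49 to 0.75. Of 18 regulators of mitochondrial genes, 2 rose (11.1%) and 1 fell (5.56%), against 6.98% and 7.04% of all tested genes. Nrip1, a corepressor of nuclear receptors, rose by 0.43 on the log2 scale (SE 0.07, adjusted p = 0.0154) and Esrrg, an estrogen-related receptor, by 0.50 (SE 0.08, adjusted p = 0.0185), while Pprc1, a coactivator related to PGC-1, fell by 0.33 (SE 0.07, adjusted p = 0.0334). Esrrg was at 15.5 and 13.6 against 19.8 and 20.3 CPM in the GFP mice and at 6.17 and 7.53 against 8.97 and 11.05 CPM in the mCh mice, and was higher in Dll1+ cells of each mouse. A list of 16 cell cycle genes, chosen after seeing the data, fell as a whole, with 16 of 16 lower and a median of -1.06. Its summed level was 880.6 and 914.9 against 391.1 and 405.9 CPM in the GFP mice and 1508 and 1201 against 685.0 and 721.6 CPM in the mCh mice. The basal epithelial markers moved the other way. Their sum was 153.0 and 123.9 CPM in Dll1- against 364.0 and 201.0 CPM in Dll1+ cells of the GFP mice and 275.5 and 590.1 against 1131 and 1429 CPM in the mCh mice, higher in Dll1+ cells of each mouse. All 5 had counts in every library, with 2 of 5 called higher and a median log2 fold change of 1.27. The part of the cell cycle and basal genes in the fall of the subunits was not tested.

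The 13 subunits encoded in mitochondrial DNA did not share one direction. Their median log2 difference was -0.611 and -0.213 in GFP mice 1 and 2 and 0.381 and 0.375 in mCh mice 1 and 2. Over the 4 mice 0 were called by edgeR, 0 had an unadjusted p under 0.05 and DESeq2 called 0. Within the GFP mice 1 fell and 0 rose (8 lower and 0 higher at an unadjusted p under 0.05, DESeq2 6 and 0). Of all 18322 genes 4.84% fell there, 4900 had an unadjusted p under 0.05 and DESeq2 called 1046 lower. Within the mCh mice 3 rose and 0 fell (5 higher and 0 lower at an unadjusted p under 0.05, DESeq2 5 and 0). Of all genes 5.51% rose there, 5539 had an unadjusted p under 0.05 and DESeq2 called 1046 higher. With the mCh libraries fitted alone 0 of all genes were called. The gene that passed in both was mt-Nd4l, a membrane subunit of complex I, at 592.5 and 583.2 against 459.1 and 420.0 CPM in the GFP mice and 243.7 and 183.5 against 318.9 and 234.0 CPM in the mCh mice. It changed by -0.42 in the GFP mice (adjusted p = 0.0387) and 0.37 in the mCh mice (adjusted p = 0.0489), and the test of the difference gave an adjusted p of 0.0881. The 3 genes of lowest p over the 4 mice, mt-Co3, mt-Atp8 and mt-Cytb, stood at 0.66, 0.71 and -0.21 (adjusted p from 0.277 to 0.368).

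**Figure D4:**
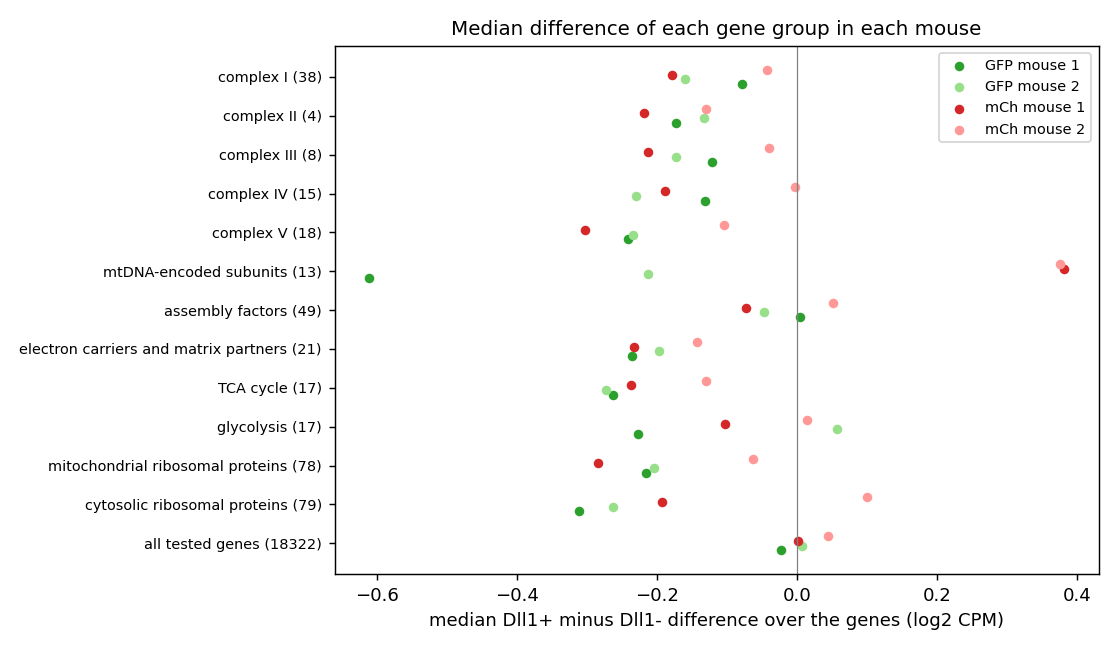
Median log2 difference of CPM between the Dll1+ and the Dll1- library (x axis) over the genes of each group (y axis, number of genes in parentheses), with 1 point per mouse. Complexes I to V, the carriers, the citric acid cycle and the mitochondrial ribosomal proteins lie at or below 0 in all 4 mice. The subunits encoded in mitochondrial DNA lie at -0.611 and -0.213 in the GFP and near 0.38 in the mCh mice.

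Between the reporter lines the members differed more than between the fractions of a mouse. In Dll1- cells 66 of the 83 members were higher in the mCh than in the GFP mice and 0 lower at an adjusted p under 0.05 (75 higher and 0 lower at an unadjusted p, DESeq2 72 and 0), with 18.7% of all tested genes higher and 17.9% lower. In Dll1+ cells 66 were higher and 0 lower (76 and 0 at an unadjusted p under 0.05, DESeq2 69 and 0), with 15.2% of all genes higher and 15.4% lower. Of all 18322 genes, 8625 in Dll1- and 8083 in Dll1+ cells had an unadjusted p under 0.05 in either direction. DESeq2 called 3834 genes higher and 3320 lower in Dll1- cells, and 3165 higher and 3078 lower in Dll1+ cells. The median log2 differences of the members were 0.633 and 0.658, against 0.010 and 0.066 for all genes. Both mCh libraries lay above both GFP libraries for 80 members in Dll1- and 81 in Dll1+ cells, as they did for 35.7% and 36.8% of all tested genes. The reporter, the mice, their tumors and any batch of collection cannot be told apart here, and with GFP mouse 1 or GFP mouse 2 left out 0 members, and 0 of all genes, were called in Dll1- cells, and 0 members in Dll1+ cells.

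The members with the lowest p, apart from Ndufa4l2, came from complexes IV and V. In Dll1- cells Cox8a, a small subunit of complex IV, was at 123 and 117 CPM in the GFP and at 241 and 208 CPM in the mCh mice (log2 difference 0.90, SE 0.10, adjusted p = 0.00207). In Dll1+ cells it was at 128 and 125 against 217 and 207 CPM (0.74, SE 0.10, adjusted p = 0.00558). Cox6a1 and Atp5k followed in Dll1- cells with log2 differences of 0.85 and 1.05 (adjusted p = 0.00291 and 0.00313), and Cox5a and Atp5d, the delta subunit of the F1 head, in Dll1+ cells with 1.01 and 0.72 (adjusted p = 0.00416 and 0.00558). Ndufa4l2 differed by 5.16 (SE 0.31, adjusted p = 7.92e-04) in Dll1- and by 2.91 (SE 0.29, adjusted p = 0.00332) in Dll1+ cells, and Cox4i2 by 3.93 (adjusted p = 0.00567) and 0.86 (adjusted p = 0.330).

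The line difference was not shared by all members. The log2 difference of Ndufs1 was 0.01 in Dll1- and 0.07 in Dll1+ cells (SE 0.09 for both, adjusted p = 0.927 and 0.549), and that of Sdha 0.17 and 0.12 (adjusted p = 0.198 and 0.361). Atp5s was the only member with a value below 0 in Dll1- cells. Ndufs1 and Sdha are among the 8 members of 2000 bases or more, and the line difference went with transcript length. The 53 members under 1000 bases had a median log2 difference of 0.713 in Dll1- cells, the 22 of 1000 to 2000 bases one of 0.559 and the 8 of 2000 bases or more one of 0.400, and in Dll1+ cells the medians were 0.728, 0.606 and 0.416. Other protein-coding genes followed the same order, with medians in Dll1- cells of 0.563 for 963 genes under 1000 bases, 0.345 for 3181 genes of 1000 to 2000 bases, 0.055 for 6056 genes of 2000 to 4000 bases and -0.294 for 4358 longer genes. The cytosolic ribosomal proteins, with a median length of 780 bases against 782 for the members, had medians of 0.654 in Dll1- and 0.911 in Dll1+ cells. The part of transcript length in the line difference of the members was not tested.

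**Figure D5:**
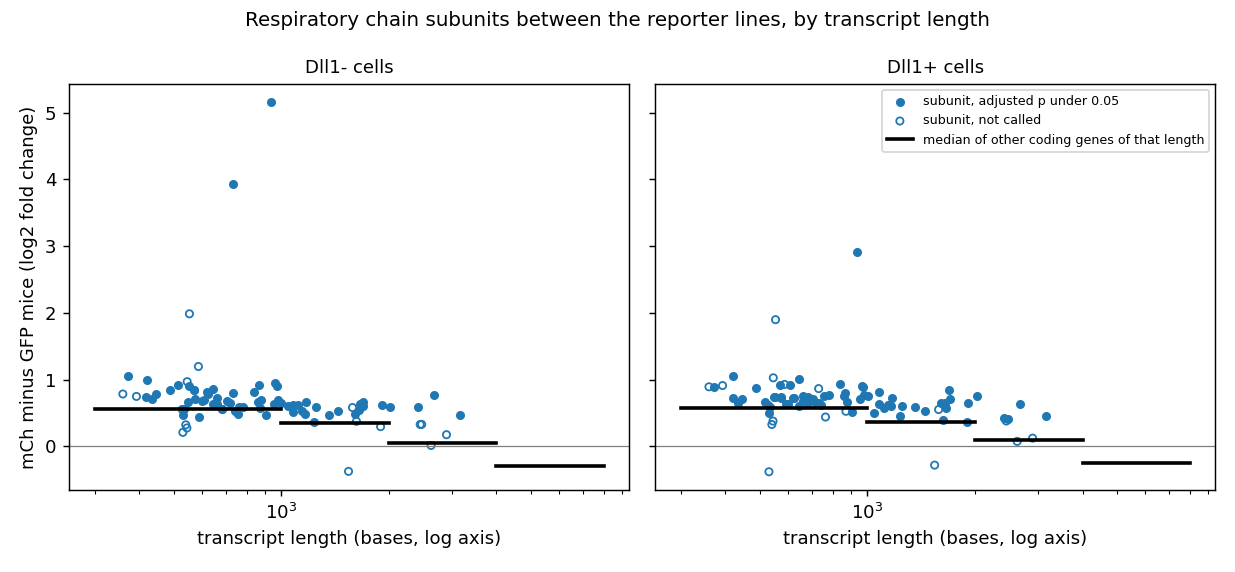
The log2 fold change of the mCh over the GFP mice (y axis) for each subunit against its transcript length in bases (x axis, log scale), in Dll1- (left) and Dll1+ cells (right), with filled points for an adjusted p under 0.05. Black bars are medians of the other protein-coding genes in 4 length classes, from 0.563 for the shortest to -0.294 for the longest in Dll1- cells.

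The Dll1 difference was also set against length. The median log2 fold changes of Dll1+ against Dll1- cells over the 4 mice were -0.135, -0.169 and -0.163 for the members of the same 3 length classes. Other protein-coding genes had medians of -0.063 under 1000 bases, -0.051 from 1000 to 2000 bases, -0.028 from 2000 to 4000 bases and 0.006 above that, in order of length. The part of length in the Dll1 difference was not tested. Of the 53 shortest members 8 were called, of the 22 of middle length 4 and of the 8 longest 3. Ndufs1, at 2625.5 bases, is a member in which the fall in Dll1+ cells stood beside no detected difference between the lines.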

How the data were processed

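RNA was sequenced from 8 libraries of sorted tumor cells, 1 Dll1+ and 1 Dll1- library from each of 4 mice, with the TruSeq stranded kit. The authors quantified GENCODE M20 transcripts (GRCm38.p6) with salmon, tximport summed them to genes, and the deposited values are estimated counts per gene, as whole numbers without normalization. Salmon divides reads among similar transcripts, which can move counts between a subunit and its pseudogenes. Each library's precision is set by its 27301396 to 123907626 counts, and 3 counts correspond to 0.0242 to 0.110 CPM (counting error only).

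Counts were scaled by TMM, filtered with filterByExpr (18322 genes left) and tested with edgeR 4.0.16 in R 4.3.3 (robust quasi-likelihood F test, Benjamini-Hochberg adjustment, threshold 0.05). Its terms were the Dll1 fraction and the mouse, as in the study's own model, which was fitted with DESeq2. A second model estimated the Dll1 effect in the GFP and in the mCh mice and tested their difference, and a model of 4 groups without a block compared the reporter lines. Pairs are libraries of the same animal, as the labels name it. Their deviations from the group means correlated with -0.0472 in the GFP and 0.554 in the mCh mice. A prior count of 2 went into the log2 value of each library. Transcript lengths and coordinates came from the GENCODE annotation of GRCm38, with principal transcripts where marked. The fits were tested on simulated counts.

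The members and gene lists were chosen with earlier results of these data known. Named were the 3 members of lowest p per complex, all of complex II, the core of complex I, the isoform families, the 4 of lowest p and any 5 or fewer called in the other comparisons, 3 genes per list, and Dll1 and markers of the sort. Other names (further called members, members that ran the other way, pseudogenes, glycolysis and pericyte genes) were chosen after their values were seen. Some members that the rule would name are not reported here. The alternatives were RLE factors (edgeR), library totals alone, DESeq2 1.42.0, no filter, a minimum of 10 counts in every library, a fit that ignores the mouse, fits of each reporter or Dll1 fraction alone and each mouse left out.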

Additional observations from a re-analysis of the deposited data

Results flagged for a closer look

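The 13 subunits encoded in mitochondrial DNA had a median log2 difference between Dll1+ and Dll1- cells of -0.421 in the GFP mice and of 0.369 in the mCh mice, and the median was below 0 in both GFP mice and above 0 in both mCh mice. That opposite direction brought the list here, and the difference between the reporters was not tested for the list as a whole. For single genes, the edgeR test of the difference called 0 of 13, with 8 lower in the GFP mice at an unadjusted p under 0.05, and DESeq2 called 5. Of all 18322 tested genes, 2420 had such an unadjusted p in either direction and DESeq2 called 540.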

How the results depend on the processing

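Over the 4 mice, 15 members were called lower, against 23 with library totals alone, 30 with DESeq2 and 2 with no replicate block, and 0 to 18 with each mouse left out, while the median of the members stayed between -0.191 and -0.131. In the GFP mice the 3 calls became 13 with library totals (median -0.210), 6 with DESeq2, 6 with no filter, 5 with at least 10 counts in every library, 0 with no replicate block, 6 with that reporter alone and 0 to 5 with a mouse left out. In the mCh mice the 2 calls became 5 with library totals, 5 with DESeq2 and 7 with no filter. They became 1 with at least 10 counts, 1 with no replicate block and 0 with that reporter alone. Those 2 calls were Cox4i2 and Ndufa4l2, so the count of 0 without these genes follows by construction, with no fit repeated. For the difference between the reporters, DESeq2 called 1 and the unfiltered test 2, and the median of -0.046 ranged from -0.0762 to 0.0788 with a mouse left out. The 66 calls between the lines became 0 without either GFP mouse and 60 to 76 (Dll1-) or 64 to 74 (Dll1+) without an mCh mouse, and the median in Dll1- cells ranged from 0.471 to 0.817. The calls between the lines were 54 (Dll1-) and 56 (Dll1+) with library totals. With that Dll1 state alone they were 48 and 59. The members nearest to 0 changed sign. Cox7a1 gave -0.0037 and Cox7a2l -0.0512 with library totals, Cox7a2l -0.0041 with no filter, and Cox8a 0.00013 with RLE factors and 0.0016 with at least 10 counts. With mice left out, Cox6b2 ranged from -0.2205 to 0.3617, Cox7a1 from -0.0402 to 0.1642, Cox7a2l from -0.0328 to 0.0807, Cox8a from -0.0271 to 0.0516 and Cox8b from -0.1848 to 0.0831. In all, 97 counts and medians and 446 values of single genes stayed on the same side of their limits, 32 counts and medians moved and 1 reversed, and of the single-gene values 38 newly passed the threshold, 57 no longer did and 13 reversed. The block was not used between the lines, which share no mouse, and with each setting that leaves out a mouse, the lone library of a group is assumed to vary like the others. The cause of these changes was not tested.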
